A study of Mus musculus and Homo sapiens with 32 samples.

Results

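The 36 enzymes and transporters described here carry glucose through glycolysis, build it again through gluconeogenesis, and decide what becomes of pyruvate. They were taken from the obstruction experiment as the rows whose gene name is on a list of 36 symbols, and all 36 were found among the 57180 rows of the table. Aldoa is listed on 2 rows, of which the main locus (ENSMUSG00000030695) was used. Every member passed the filter on low counts. By role, 6 are gluconeogenic enzymes, 6 bring glucose or fructose in and phosphorylate it, 6 are phosphofructokinases and the bifunctional enzymes that regulate them, 9 catalyse reversible middle steps, 2 are pyruvate kinases, 3 are lactate dehydrogenases, and 4 are the pyruvate dehydrogenase subunit Pdha1 and the kinases that switch the complex off.

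The samples were whole mouse kidney in 6 groups of 3 libraries. Pcmt1 tKO kidneys were taken after unilateral ureteral obstruction (UUO) with the compound LY2109761, after UUO with DMSO, and after a sham operation with DMSO, and Pcmt1 fl/fl kidneys after the same 3 treatments. All 18 libraries thus come from a line labelled with a Pcmt1 allele, fl/fl or tKO. Pcmt1 encodes an enzyme that repairs isoaspartyl residues in damaged proteins, UUO ties off 1 ureter and is a standard model of renal fibrosis, and LY2109761 is an inhibitor of the TGF-beta receptor kinases. The labels do not spell out tKO, and the Cre driver, age, sex, time after surgery and dose are not given in the sources used here. Nothing in the labels says that replicates are separate animals, so the p-values measure the spread between these libraries.

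The kidney is, with the liver, an organ that releases newly made glucose, and the proximal tubule is where it does so. Gluconeogenesis bypasses the irreversible glycolytic steps with enzymes of its own. Pyruvate carboxylase (Pcx) and phosphoenolpyruvate carboxykinase (Pck1 in the cytosol, Pck2 in mitochondria) turn pyruvate into phosphoenolpyruvate, fructose-1,6-bisphosphatase (Fbp1, Fbp2) opposes phosphofructokinase, and glucose-6-phosphatase (G6pc) opposes hexokinase. Glycolytic enzymes come as isoforms that mark cell types and states: Hk1 is the common hexokinase, Hk2 an inducible one and Hk3 one of myeloid cells, while pyruvate kinase is made from Pkm in most tissues and from Pklr in liver, kidney and erythroid cells.

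The promoters of 4 members are shown as examples. They are Pck1, G6pc and Fbp1, 3 of the 4 gluconeogenic genes that fell after obstruction, and Hk2, a hexokinase gene that rose, as Hk3 did. The part of these promoters in the changes was not tested. RefSeq promoter windows (GRCm38.p6, 250 bases before to 50 after the start, 5′ to 3′ on the gene's strand) matched 35 of the 36 members by symbol. Where a gene had several, the window nearest the annotated gene start was used. Capitals mark matches, on either strand, to GTTAAT (a partial HNF1 site; HNF1 is a tubule and liver factor) in the first 2 sequences, and to ACGTG (core of the hypoxia response element) in the last.
Pck1, chr2:173152823-173153122, plus strand: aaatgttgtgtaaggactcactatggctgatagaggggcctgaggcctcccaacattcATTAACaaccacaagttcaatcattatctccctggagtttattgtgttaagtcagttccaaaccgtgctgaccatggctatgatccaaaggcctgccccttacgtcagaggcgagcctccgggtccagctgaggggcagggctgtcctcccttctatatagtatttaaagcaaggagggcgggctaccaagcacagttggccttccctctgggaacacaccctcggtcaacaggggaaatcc
G6pc, chr11:101367466-101367765, plus strand: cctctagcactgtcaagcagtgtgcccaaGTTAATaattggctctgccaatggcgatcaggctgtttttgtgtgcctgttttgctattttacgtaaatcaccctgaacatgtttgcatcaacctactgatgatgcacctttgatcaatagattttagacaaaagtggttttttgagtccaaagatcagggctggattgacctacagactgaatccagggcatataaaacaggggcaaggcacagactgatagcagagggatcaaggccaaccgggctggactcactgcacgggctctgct
Fbp1, chr13:62888233-62888532, minus strand: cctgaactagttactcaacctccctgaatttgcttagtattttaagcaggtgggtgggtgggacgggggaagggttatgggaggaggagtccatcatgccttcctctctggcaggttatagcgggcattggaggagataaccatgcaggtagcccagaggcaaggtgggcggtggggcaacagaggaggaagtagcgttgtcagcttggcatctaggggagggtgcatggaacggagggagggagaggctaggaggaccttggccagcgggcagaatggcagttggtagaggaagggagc
Hk2, chr6:82774405-82774704, minus strand: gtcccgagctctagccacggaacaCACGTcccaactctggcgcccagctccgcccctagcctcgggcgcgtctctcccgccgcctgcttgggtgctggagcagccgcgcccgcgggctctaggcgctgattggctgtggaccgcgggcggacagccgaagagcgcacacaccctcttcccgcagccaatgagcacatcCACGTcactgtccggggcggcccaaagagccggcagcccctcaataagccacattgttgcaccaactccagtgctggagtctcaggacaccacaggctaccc

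The letters GTTAAT began 192 bases before the start of Pck1 and 221 before that of G6pc, and neither gene's window held ACGTG. In Hk2, ACGTG began 226 and 52 bases before the start. Pcx and Khk, which fell, held it from 248 and 71 bases before the start, and Pklr and Eno2, which rose, did not hold it. Across members GTTAAT was present in 4 of 35 windows (11.4%), against 7.1% of all 32851 RefSeq windows. ACGTG was present in 16 of 35 (45.7%), against 19.6% of all windows (a palindrome CACGTG matches ACGTG on both strands, and a window counts once). The cAMP response element, searched only as the exact letters TGACGTCA, was found in 1 member window (2.86%), that of Ldha, against 1.79%. Variants of it were not counted: the Pck1 window holds TTACGTCA, which differs in a single letter. The HNF4A site CAAAGTCCA was found in 0 of 35, against 0.475%. Each match describes letters in these windows.

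Libraries held 13015669 to 19565376 counts, of which the members took 0.285% to 0.89%. Transcripts encoded by mitochondria took 33.7%, 49.7% and 69.5% of the counts of the 3 tKO sham libraries and 30.8% to 35.5% of those of fl/fl sham libraries, and 7.43% to 18.8% in the 12 UUO libraries. Levels are therefore given as CPM, counts scaled by the TMM-corrected library size, and between genes as the deposited FPKM, which divides by a length. That length is not given and was worked out from counts and FPKM. It is not always a gene length: the 8626 bases implied for Gapdh exceed its whole span (chromosome 6, 125161715 to 125166467). Sizes of FPKM differences between genes rest on these implied lengths and are approximate. Pcmt1 stood at 49.3, 22.7 and 24.3 CPM in tKO sham libraries 1 to 3, against 42.8 to 48.95 CPM in fl/fl sham, and at 24.7 to 26.1 CPM in tKO UUO, against 35.3 to 41.4 CPM in fl/fl UUO. The library labelled tKO sham replicate 1 thus goes against its label, and counts of members called on the tKO sham group are given with and without it, as are the members whose value or call it changes. With LY2109761, Pcmt1 in tKO over fl/fl was at −0.29 on the log2 scale (edgeR adjusted p = 0.5354), against −0.61 after UUO with DMSO (adjusted p = 0.0818). The −0.29 became −0.42 without fl/fl UUO with LY2109761 replicate 3 and −0.12 without replicate 4. Pcmt1 thus separated the genotypes less in the LY2109761 groups, whose labels were used as given.

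Obstruction was followed by lower levels of most of the gluconeogenic enzymes, of Khk and of all 4 pyruvate dehydrogenase genes, while Hk2, Hk3, Slc2a3, Eno2, Pklr and Fbp2 rose. In fl/fl kidneys 23 of the 36 members passed an edgeR adjusted p of 0.05 between UUO and sham, where 39.6% of all 19256 tested genes did. The 6 higher members stand against 20.9% of all genes, and the 17 lower ones (47.2%) against 18.7%. In tKO kidneys 24 passed, 7 higher and 17 lower, where 41% of all genes did (21.6% higher, 19.4% lower), and without the library labelled tKO sham replicate 1 they were 7 and 15, with the calls of Pgk1 and Pdk3 lost and the other 22 kept. Of 19742 genes tested without that library, 7738 were called, 4177 of them higher. The median member changed by −0.63 on the log2 scale in fl/fl and −0.69 in tKO, where the median of all genes was 0.02 in both. The split depends on scaling: with column totals the median of all genes moved up by 0.74 in fl/fl and 1.05 in tKO, and 9 members were then called higher and 5 lower in fl/fl (11 and 8 in tKO). Of all 19256 genes, 9450 were then called in fl/fl, 8544 of them higher, and 12393 in tKO, 11678 of them higher. Lower calls were thus still a larger share of the called members than of all called genes. The plot of changes by role shows every member in both genotypes.

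**Figure D1:**
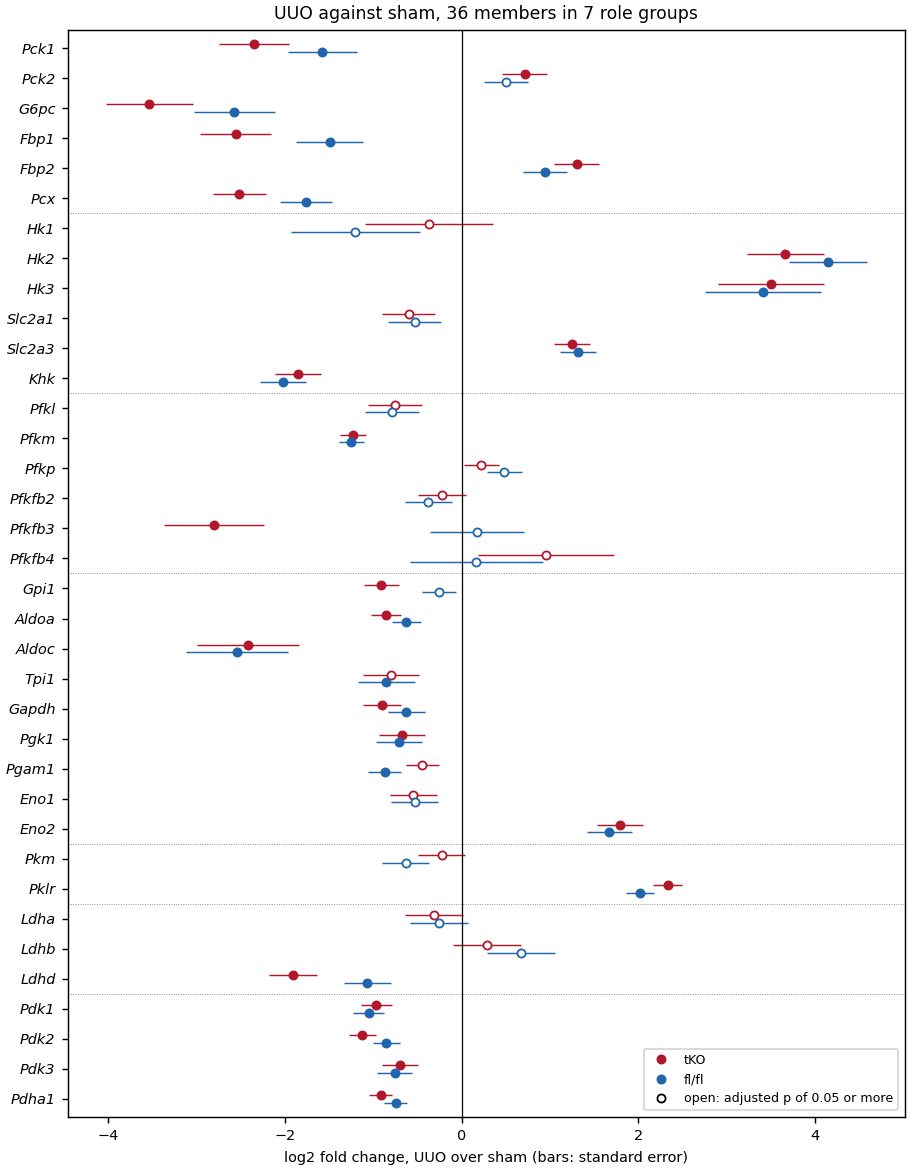
Log2 fold change (x axis, UUO over sham) of the 36 members (rows), grouped by role between dotted lines, with the tKO value above the fl/fl value. Bars are standard errors and open circles did not pass an adjusted p of 0.05. Hk2 lies furthest right at 3.66 in tKO and 4.14 in fl/fl, and G6pc furthest left at −3.54 in tKO and −2.57 in fl/fl.

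Of the 6 gluconeogenic genes, 4 fell in both genotypes. G6pc (ENSMUSG00000078650, chromosome 11, 101367561 to 101377903), whose product frees glucose from glucose-6-phosphate, had 46.8, 24.4 and 72.6 CPM in fl/fl UUO, against 171, 211 and 473 CPM in fl/fl sham. It had 11.4, 10.5 and 8.43 CPM in tKO UUO, against 109, 108 and 135 CPM in tKO sham. No UUO library reached the lowest sham library of its genotype. The log2 change was −2.57 (SE 0.46, edgeR adjusted p = 4.0e-04) in fl/fl and −3.54 (SE 0.49, adjusted p = 3.8e-05) in tKO.

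Pck1 (ENSMUSG00000027513, chromosome 2, 173153048 to 173159273), the cytosolic carboxykinase, had the highest FPKM of the 6 genes in every group. It had 707, 299 and 773 CPM in fl/fl UUO, against 1595, 1937 and 1789 CPM in fl/fl sham, and 239, 315 and 391 CPM in tKO UUO, against 914, 1278 and 2627 CPM in tKO sham. The groups did not overlap in either genotype (−1.58 as log2, SE 0.39, edgeR adjusted p = 0.0043 in fl/fl, and −2.35, SE 0.40, adjusted p = 2.4e-04 in tKO).

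Fbp1 had 217, 139 and 261 CPM in fl/fl UUO, against 478, 624 and 637 CPM in fl/fl sham, without overlap (log2 −1.496, SE 0.38, edgeR adjusted p = 0.0056). In tKO it had 37.3, 29.1 and 27.9 CPM after UUO, against 314, 121 and 120 CPM after sham (−2.56, SE 0.40, adjusted p = 1.1e-04). The highest of the 3 tKO sham values is that of the library labelled replicate 1, without which the change was −1.93 (adjusted p = 4.0e-04). With column totals Fbp1 kept its sign in fl/fl, at −0.76, but not its call (adjusted p = 0.1953). Pcx, which makes oxaloacetate from pyruvate, had 114, 74.1 and 161 CPM in fl/fl UUO, against 333, 437 and 419 CPM in fl/fl sham (−1.77, edgeR adjusted p = 2.0e-04), and 41.1, 38.7 and 46.6 CPM in tKO UUO, against 306, 229 and 189 CPM in tKO sham (−2.52, adjusted p = 1.1e-05). UUO and sham libraries of Fbp1 and Pcx did not overlap in either genotype.

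The other isozymes differed in direction. Fbp2, known as the muscle fructose-1,6-bisphosphatase, rose, with 24.7, 18.7 and 21.5 CPM in fl/fl UUO, against 12.1, 11.4 and 10.3 CPM in fl/fl sham (log2 0.94, SE 0.24, edgeR adjusted p = 0.0059), and 16.8, 15.98 and 9.89 CPM in tKO UUO, against 6.63, 5.50 and 4.98 CPM in tKO sham (1.30, adjusted p = 7.6e-04). The groups were apart in both genotypes. Skeletal muscle markers (7 listed, 2 of them tested) summed to 1.70 to 4.94 CPM in fl/fl UUO, with Ckm, Myh1 and Myh4 at 0, against 3.62 to 6.47 CPM in fl/fl sham with Myh4 at 0. In tKO they summed to 1.99 to 2.83 CPM after UUO, against 0.997 to 5.22 CPM after sham. Pck2, the mitochondrial carboxykinase, was called in tKO alone (0.71, adjusted p = 0.0329, against 0.50 and 0.1282 in fl/fl), and the difference between the genotypes did not pass (interaction 0.21, adjusted p = 0.8644). The tKO call was lost without tKO sham replicate 3 (0.41, adjusted p = 0.0696) and without any 1 of the 3 tKO UUO libraries (adjusted p of 0.0557 to 0.0796).

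**Figure D2:**
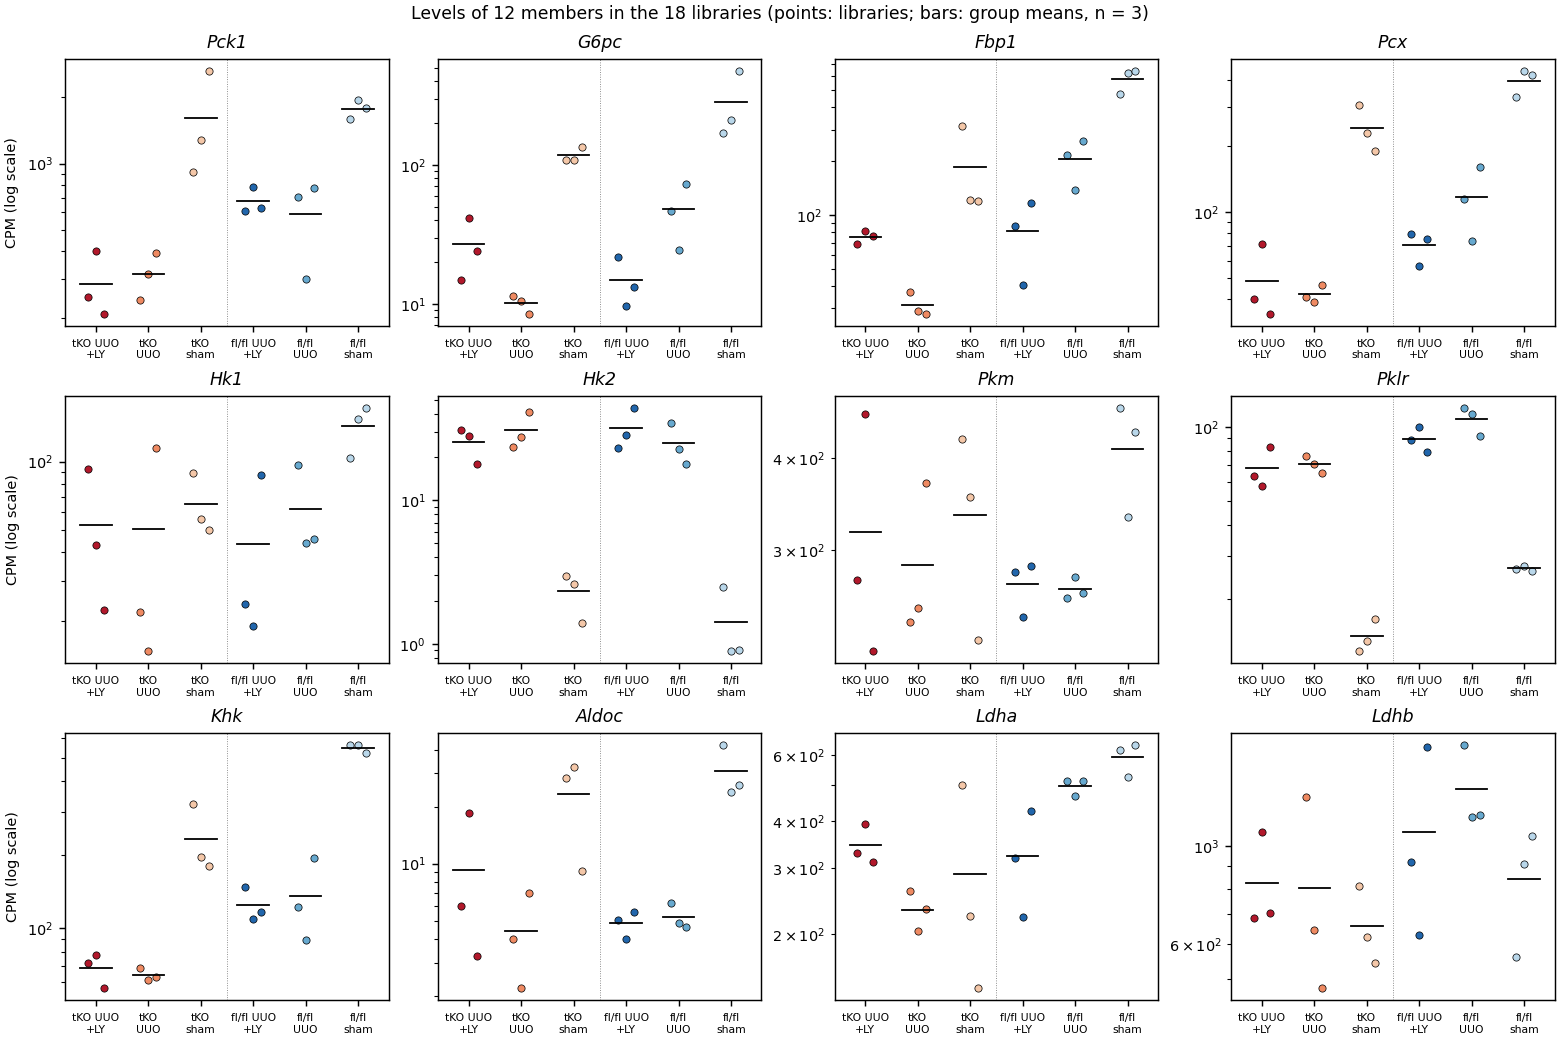
CPM on a log scale (y axis) of 12 members in the 18 libraries, with tKO groups left of the dotted line and fl/fl groups right of it. Points are libraries and bars group means (n = 3). Hk2 lies between 17.9 and 43.8 CPM in all 12 UUO libraries and at 2.98 CPM or less in all 6 sham libraries, and G6pc is at 8.43 to 11.4 CPM in tKO UUO.

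At the entry to glycolysis, 3 of 6 genes rose and 1 fell in each genotype. Hk2, the inducible hexokinase, had 34.8, 22.9 and 17.9 CPM in fl/fl UUO, against 2.49, 0.888 and 0.900 CPM in fl/fl sham. It had 23.5, 27.7 and 41.5 CPM in tKO UUO, against 2.98, 2.60 and 1.40 CPM in tKO sham. Every UUO library was at least as high as 17.9 CPM and every sham library under 3 CPM, and the rise was 17.7-fold in fl/fl (log2 4.14, SE 0.44, edgeR adjusted p = 3.7e-06) and 12.7-fold in tKO (3.66, adjusted p = 9.8e-06).

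Hk3, the myeloid hexokinase, was scarce, with 3.01 to 5.15 CPM in fl/fl UUO, against 0.142 to 0.518 CPM in fl/fl sham (log2 3.42, edgeR adjusted p = 6.7e-04), and 7.24 to 26.7 CPM in tKO UUO, against 0.399 to 1.66 CPM in tKO sham (3.50, adjusted p = 2.6e-04). Markers of myeloid cells moved with it. Of 10 macrophage and monocyte markers 9 rose in each genotype, summing to 1051 to 1265 CPM in fl/fl UUO, against 187 to 218 CPM in fl/fl sham. All 5 tested of 6 neutrophil markers rose too, at 17.2 to 47.7 CPM in fl/fl UUO with Mpo at 0, against 1.93 to 4.26 CPM in fl/fl sham with Retnlg and Mpo at 0. In tKO macrophage markers summed to 1304 to 2900 CPM after UUO, against 213 to 272 CPM after sham. Neutrophil markers there summed to 75.6 to 89.6 CPM after UUO, against 5.78 to 10.3 CPM after sham. Their part in the levels of Hk3 and Hk2 was not tested.

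Hk1 scattered widely between libraries. It had 97.0, 43.8 and 45.7 CPM in fl/fl UUO, against 104, 154 and 172 CPM in fl/fl sham (log2 −1.20, SE 0.73, edgeR adjusted p = 0.2094), and 21.7, 14.7 and 115 CPM in tKO UUO, against 89.6, 55.7 and 50.04 CPM in tKO sham (−0.37, adjusted p = 0.7198). Its libraries overlapped between UUO and sham in tKO, and in fl/fl the highest UUO value lay just under the lowest sham value. The antisense gene Hk1os overlaps it, and strand was not stated for the counting. Genes on the other strand overlap further members too, among them Pklr (Hcn3), Hk2 (Gm17034), Hk3 (Unc5a), Pcx (Lrfn4) and Pfkm (Senp1). None overlaps Pck1, G6pc or Fbp1. In a fit of the fl/fl UUO and sham libraries alone the edgeR adjusted p of Hk1 was 0.0260.

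Khk, which phosphorylates fructose and is best known in liver and proximal tubule, had 122, 89.0 and 193 CPM in fl/fl UUO, against 562, 561 and 523 CPM in fl/fl sham (log2 −2.02, SE 0.26, edgeR adjusted p = 1.9e-05). In tKO it had 68.5, 61.5 and 63.1 CPM after UUO, against 322, 195 and 180 CPM after sham (−1.85, adjusted p = 4.1e-05). The groups stood far apart in both. The glucose transporter Slc2a3 (GLUT3) was scarce and rose, with 4.13 to 5.04 CPM in fl/fl UUO, against 1.67 to 1.92 CPM in fl/fl sham (1.31, adjusted p = 1.0e-04), while Slc2a1 (GLUT1) was not called (−0.53, adjusted p = 0.1696).

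Among the phosphofructokinases only the muscle-type subunit gene Pfkm was called in both genotypes. It had 21.4, 22.5 and 27.9 CPM in fl/fl UUO, against 60.4, 52.8 and 57.6 CPM in fl/fl sham (log2 −1.25, SE 0.14, edgeR adjusted p = 7.7e-06), and 24.2, 27.4 and 25.7 CPM in tKO UUO, against 64.6, 63.3 and 53.0 CPM in tKO sham (−1.23, adjusted p = 9.0e-06). UUO and sham libraries were apart in both genotypes. Pfkl, the liver-type subunit, was at −0.79 in fl/fl (adjusted p = 0.0505) and Pfkp, the platelet type, at 0.48 (adjusted p = 0.0643). Of the bifunctional enzymes that set fructose-2,6-bisphosphate, Pfkfb2 and Pfkfb4 were called in neither genotype. Pfkfb3, the isoform with the strongest kinase activity, had 2.40, 4.75 and 11.8 CPM in tKO UUO, against 57.2, 46.1 and 28.5 CPM in tKO sham (−2.81, adjusted p = 9.8e-04). In fl/fl it had 9.59, 23.8 and 11.9 CPM after UUO, against 9.31, 13.6 and 17.3 CPM after sham, which overlap (0.17, adjusted p = 0.8326). The interaction of −2.98 did not pass with edgeR (adjusted p = 0.1233).

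Of the 9 genes of the reversible middle steps, 6 fell and 1 rose in fl/fl, and 5 fell and 1 rose in tKO. Aldoc, an aldolase best known in brain, had 6.23, 4.85 and 4.61 CPM in fl/fl UUO, against 42.1, 23.9 and 25.98 CPM in fl/fl sham (log2 −2.55, SE 0.58, edgeR adjusted p = 0.0024), and 3.99, 2.20 and 6.97 CPM in tKO UUO, against 28.2, 32.4 and 9.17 CPM in tKO sham (−2.42, adjusted p = 0.0035). Eno2, the neuronal enolase, went the other way, with 7.65, 8.73 and 8.09 CPM in fl/fl UUO, against 2.20, 2.89 and 2.57 CPM in fl/fl sham (1.67, adjusted p = 1.0e-04), and 10.3, 13.04 and 11.3 CPM in tKO UUO, against 3.35, 2.60 and 4.19 CPM in tKO sham (1.79, adjusted p = 6.2e-05). In both genotypes the groups were apart for each gene. Neuron markers (4 listed, 3 tested) summed to 6.71 to 7.42 CPM in fl/fl UUO, with Snap25 at 0, against 11.1 to 11.8 CPM in fl/fl sham, with Tubb3 at 0. In tKO their sums went the other way, at 10.7 to 13.3 CPM after UUO, against 4.59 to 9.61 CPM after sham. Of the 3 tested neuron markers, 1 was called higher and 2 lower in fl/fl, and 1 higher and 0 lower in tKO. Their part in the level of Eno2 was not tested.

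The housekeeping enzymes of these steps moved less. Aldoa was at −0.62 in fl/fl (edgeR adjusted p = 0.0074) and −0.86 in tKO (adjusted p = 7.9e-04), Gapdh at −0.62 and −0.90, and Pgk1 at −0.71 and −0.68, all called, but with column totals the sign of each turned in both genotypes. Pgam1 (−0.87, adjusted p = 0.0016) and Tpi1 (−0.85, adjusted p = 0.0439) were called in fl/fl, and Gpi1 in tKO (−0.91, adjusted p = 0.0015), where its sign turned with column totals. Eno1 was called in neither. The fl/fl calls of Pgk1, Tpi1 and Gapdh were lost when single libraries were left out, each at adjusted p of up to 0.1378, 0.1456 and 0.1102. In tKO, Pgk1 was at −0.23 without the library labelled tKO sham replicate 1 (edgeR adjusted p = 0.4112), and its call was also lost without any 1 of the 3 tKO UUO libraries (adjusted p of 0.0901 to 0.1142). Counts of several of these genes are uncertain because copies of nearly the same sequence have rows of their own: Pgk1 had 57058 counts in all libraries and Pgk1-rs7 27410, Pgam1 48683 and Pgam1-ps2 6735, and Eno1 67926 and Eno1b 11492. Gapdh had 10684 counts in this table, and copies whose symbol is built on its name held 171. Copies under other names were not searched, so the abundance of its mRNA cannot be read from this count. Group means of Gapdh were 3.26 to 4.80 FPKM, where those of Aldoa were 85.2 to 117 FPKM. The Gapdh values rest on an implied length of 8626 bases, which exceeds the gene.

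The pyruvate kinases parted. Pklr (chromosome 3), of the liver and erythroid enzymes, had 119, 113 and 91.9 CPM in fl/fl UUO, against 26.6, 27.3 and 26.1 CPM in fl/fl sham, a 4.06-fold rise (log2 2.02, SE 0.16, edgeR adjusted p = 2.6e-07). It had 76.5, 71.0 and 64.9 CPM in tKO UUO, against 12.3, 13.5 and 16.6 CPM in tKO sham, a 5.05-fold rise (2.34, SE 0.16, adjusted p = 1.1e-07). The lowest UUO library was far above the highest sham library in both genotypes, and these are the smallest adjusted p-values of any member. Erythroid markers fell with obstruction in 5 of 5 cases in each genotype, summing to 51.4 to 227 CPM in fl/fl UUO, against 574 to 1389 CPM in fl/fl sham, and to 112 to 299 CPM in tKO UUO, against 582 to 3457 CPM in tKO sham. Of 5 liver markers 4 fell and Fgb rose in each genotype. Pkm, the pyruvate kinase of most tissues, had 258, 275 and 262 CPM in fl/fl UUO, against 467, 332 and 434 CPM in fl/fl sham (−0.63, adjusted p = 0.0697), and 239, 250 and 370 CPM in tKO UUO, against 425, 354 and 226 CPM in tKO sham (−0.23, adjusted p = 0.5226). Its groups were apart in fl/fl and overlapped in tKO, and its sign turned with column totals in both.

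Neither of the lactate dehydrogenases that make and use L-lactate was called. Ldha had 511, 466 and 513 CPM in fl/fl UUO, against 619, 524 and 636 CPM in fl/fl sham (log2 −0.26, edgeR adjusted p = 0.5743), and 261, 204 and 233 CPM in tKO UUO, against 500, 223 and 143 CPM in tKO sham (−0.32, adjusted p = 0.4697, and 0.35 without the library labelled tKO sham replicate 1). Ldhb had 1692, 1163 and 1177 CPM in fl/fl UUO, against 562, 913 and 1057 CPM in fl/fl sham (0.67, adjusted p = 0.1879), and 1292, 646 and 477 CPM in tKO UUO, against 812, 621 and 542 CPM in tKO sham (0.29, adjusted p = 0.5842). Both genes overlapped between UUO and sham in tKO and lay just apart in fl/fl, Ldha lower and Ldhb higher after UUO. Ldhb-ps held 44083 counts beside the 310311 of Ldhb. Ldhd, the D-lactate dehydrogenase of mitochondria, had 277, 370 and 362 CPM in fl/fl UUO, against 773, 537 and 806 CPM in fl/fl sham (−1.07, adjusted p = 0.0049), and fell by 1.91 in tKO (adjusted p = 5.6e-05).

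All 4 genes of the pyruvate dehydrogenase step fell in both genotypes. Pdk1 had 24.5, 26.9 and 23.8 CPM in fl/fl UUO, against 57.5, 47.1 and 51.4 CPM in fl/fl sham (log2 −1.05, SE 0.18, edgeR adjusted p = 2.2e-04), and 28.9, 28.9 and 40.0 CPM in tKO UUO, against 58.5, 64.1 and 68.8 CPM in tKO sham (−0.97, adjusted p = 4.5e-04). Pdk2, Pdk3 and Pdha1, the catalytic E1 alpha subunit that these kinases phosphorylate, were at −0.86, −0.76 and −0.75 in fl/fl and −1.13, −0.70 and −0.92 in tKO. With column totals Pdk1, Pdk3 and Pdha1 turned sign in tKO. Pdk3 in tKO was not called without the library labelled tKO sham replicate 1 (−0.39, adjusted p = 0.0966), nor without tKO UUO replicate 2 (−0.62, adjusted p = 0.0525).

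Ratios of 2 members within a library need no scaling between libraries, and they show the same opposed movement as a description. FPKM depends on the implied length, which runs from 1469 bases for Fbp2 to 18890 for Pfkfb3, so the size of a ratio depends on it too. The 0.1 FPKM added to each value weighs on ratios of scarce genes. Hk2 over Hk1 averaged 0.761 in fl/fl UUO (libraries 0.652 to 0.947), against 0.0284 in fl/fl sham (0.0184 to 0.0586), and 1.60 in tKO UUO (0.653 to 3.26), against 0.0991 in tKO sham (0.0754 to 0.114). With 1 FPKM added instead, the Hk2 over Hk1 ratio in sham was 0.301 in tKO and 0.121 in fl/fl. The log2 difference between UUO and sham was then 2.22 in tKO and 2.70 in fl/fl, against 4.01 in tKO and 4.74 in fl/fl with 0.1 added, still without overlap. Pkm over Pklr averaged 1.58 in fl/fl UUO (1.39 to 1.83), against 9.61 in fl/fl sham (7.67 to 11.1), and 2.55 in tKO UUO (2.00 to 3.65), against 14.1 in tKO sham (8.21 to 21.3). In each case every UUO library lay outside the range of its sham group.

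Between opposed enzymes, Pck1 over Pkm averaged 2.71 in fl/fl UUO (1.43 to 3.87), against 5.70 in fl/fl sham (4.48 to 7.64), and 1.45 in tKO UUO (1.31 to 1.65), against 5.87 in tKO sham (2.83 to 15.1). Fbp1 over Pfkl averaged 10.8 in fl/fl UUO, against 18.1 in fl/fl sham, and 2.30 in tKO UUO, against 7.35 in tKO sham, without overlap in either genotype. G6pc over Hk1 overlapped in fl/fl (3.81 in UUO, against 9.33 in sham) but not in tKO (1.52, against 9.19). Of the 16 ratios computed, several of which share a member, 13 did not overlap between UUO and sham in fl/fl and 11 in tKO. By CPM, 54.8% and 48.8% of all tested genes did not overlap. Those are shares of single genes, and none was computed for ratios of other gene pairs, so an excess cannot be judged. The summed FPKM of Pck1, G6pc, Fbp1 and Pcx was 3.56 ± 1.34 times that of the 7 hexokinase, phosphofructokinase and Pkm genes in fl/fl UUO, against 7.65 ± 1.70 times in fl/fl sham, and 1.25 ± 0.14 times in tKO UUO, against 6.42 ± 3.79 times in tKO sham (SD, n = 3 each). The denominator was 79.1 ± 0.5 FPKM in fl/fl UUO, against 72.5 ± 12.1 FPKM in fl/fl sham, and 82.2 ± 18.1 FPKM in tKO UUO, against 50.4 ± 30.2 FPKM in tKO sham. The deposited FPKM carry no TMM scaling, so these sums, unlike their ratios, cannot be compared between groups as levels. With TMM scaling the fl/fl values of Hk1, Pfkl, Pfkm and Pkm given above lay below 0, and those of Hk2, Hk3 and Pfkp above 0.

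**Figure D3:**
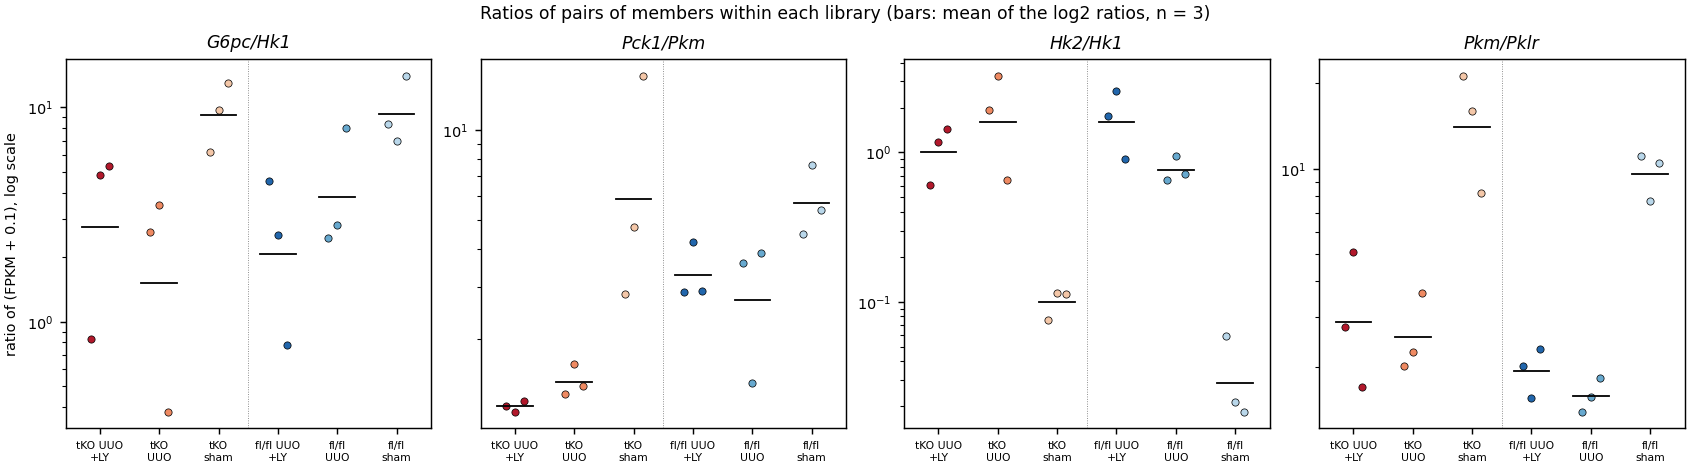
Ratio of (FPKM + 0.1) on a log scale (y axis) for 4 pairs of members in each library, with tKO groups left of the dotted line and fl/fl groups right of it. Points are libraries and bars the means of the log2 ratios (n = 3). Hk2/Hk1 is at 0.114 or less in all 6 sham libraries and at 0.604 or more in all 12 UUO libraries, and Pck1/Pkm is at 1.15 to 1.65 in the 6 tKO UUO libraries.

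Other genes of the same pathways were mostly lower too. Of 50 listed carbohydrate genes that are not members 45 were tested, and in fl/fl 2 rose and 27 fell with obstruction (median −0.75), while in tKO 4 rose and 28 fell (−0.86). Slc37a4, the transporter that feeds glucose-6-phosphatase, was at −0.89 in fl/fl (log2, edgeR adjusted p = 0.0019) and −1.72 in tKO (adjusted p = 9.0e-06). Pgam2 (−3.24), Pdhb (−1.03), the monocarboxylate transporter Slc16a7 (−2.59) and the fructose transporter Slc2a5 (−2.64) had the smallest p-values in fl/fl. The glucose transporter Slc2a2 was called in neither genotype (0.65 and 0.29), nor was Pdk4 (−0.89 and −0.92), and the glucose cotransporter Slc5a2 was called in tKO (−2.08) and not in fl/fl (−0.99, adjusted p = 0.0564). Of the regulators, Ppargc1a (−0.88 and −1.01) and Hnf4a (−0.70 and −1.01) fell in both genotypes, and Hif1a fell in fl/fl (−0.74, adjusted p = 0.0248) and was at −0.56 in tKO (adjusted p = 0.0800).

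Markers of the tubule that makes glucose fell in the same libraries. Of 13 proximal tubule markers 11 fell in fl/fl and 12 in tKO, and their sum was 6528 to 10520 CPM in fl/fl UUO, against 33920 to 49050 CPM in fl/fl sham, and 5675 to 7976 CPM in tKO UUO, against 29920 to 47210 CPM in tKO sham. None of the 13 was at 0 in any group, so the defining markers of the labelled tissue were present. Of 6 loop and distal tubule markers 4 fell in each genotype, and of 6 collecting duct markers all 6. In whole tissue, fewer cells of a type and less RNA per cell cannot be told apart, and the part of these markers in the members' changes was not tested. Of 7 fibroblast and myofibroblast markers 4 rose in each genotype, to sums of 919 to 1055 CPM in fl/fl UUO, against 153 to 238 CPM in fl/fl sham, and of 1673 to 3011 CPM in tKO UUO, against 344 to 532 CPM in tKO sham.

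Between genotypes without obstruction, 8 members were lower in tKO and 0 higher by edgeR, where 6.57% of all genes were lower, 5.76% higher and 12.3% called in either direction. They were Fbp1, Fbp2, Khk, Tpi1, Pgk1, Pgam1, Pklr and Pdk3. Pklr had 12.3, 13.5 and 16.6 CPM in tKO sham, against 26.6, 27.3 and 26.1 CPM in fl/fl sham (log2 −0.93, SE 0.16, edgeR adjusted p = 0.0052). Pdk3, a kinase of pyruvate dehydrogenase, had 27.6, 16.2 and 16.7 CPM in tKO sham, against 44.9, 42.3 and 47.5 CPM in fl/fl sham (−1.15, adjusted p = 0.0060). Khk was at −1.24 (adjusted p = 0.0104) and Fbp1 at −1.64 (adjusted p = 0.0168) on the values given above. No library of tKO sham lay within the fl/fl range for these 4 genes, which are among 18 such members of 36, where 30.3% of all genes did not overlap.

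These calls rest on a spread shared with the other groups. In a fit of the 6 sham libraries alone 0 members were called, where 6 of 16526 genes were. DESeq2 on all libraries called 12, where 3356 of 33994 genes were. Those 33994 are all genes with any count, where edgeR tested 19256, so the DESeq2 share includes scarce genes and is not comparable. Without the library labelled tKO sham replicate 1, edgeR called 10 members, where 4235 of 19742 genes were. Fbp1 was then at −2.27, Pdk3 at −1.45, Khk at −1.55 and Pklr at −0.84. Without tKO sham replicate 2 edgeR called 2, where 485 of 19748 genes were. Without any other 1 of the 6 sham libraries it called 4 or 5, where 797 to 1330 of all genes were. Of the 13 proximal tubule markers 2 were lower in tKO sham and their sums overlapped, at 29920 to 47210 CPM in tKO sham, against 33920 to 49050 CPM in fl/fl sham. Of 7 fibroblast and myofibroblast markers 4 were higher, summing to 344 to 532 CPM in tKO sham, against 153 to 238 CPM in fl/fl sham. Of the 5 tested neutrophil markers 1 was higher, with sums of 5.78 to 10.3 CPM in tKO sham, against 1.93 to 4.26 CPM in fl/fl sham. The part of these markers in the members' differences was not tested.

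After UUO with DMSO, 10 members were lower and 1 higher in tKO, where 9.65% and 8.27% of all genes were, and 17.9% in either direction. G6pc (11.4, 10.5 and 8.43 CPM in tKO, against 46.8, 24.4 and 72.6 CPM in fl/fl) was at −2.24 (SE 0.47, edgeR adjusted p = 0.0061). Fbp1 (37.3, 29.1 and 27.9 CPM in tKO, against 217, 139 and 261 CPM in fl/fl) was at −2.71 (SE 0.40, adjusted p = 0.0014). Pcx (41.1, 38.7 and 46.6 CPM in tKO, against 114, 74.1 and 161 CPM in fl/fl) was at −1.47 (adjusted p = 0.0053). For all 3 the highest tKO library lay below the lowest fl/fl library, and 19 of the 36 members did not overlap, where 42.4% of all genes did not.

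Pdk3 had 14.2, 11.2 and 12.03 CPM in tKO UUO, against 28.7, 26.3 and 24.8 CPM in fl/fl UUO (log2 −1.09, edgeR adjusted p = 0.0037). The other lower members were Khk (−1.07), Ldha (−1.10), Tpi1 (−1.06), Pgk1 (−0.93), Pklr (−0.61) and Pdha1 (−0.39), and Pck1 was not among them (−0.91, adjusted p = 0.1103). Hk3 had 7.24 to 26.7 CPM in tKO UUO, against 3.01 to 5.15 CPM in fl/fl UUO (1.79, adjusted p = 0.0277), and without tKO UUO replicate 2 its change was 0.90 (adjusted p = 0.2064). Macrophage markers summed to 1304 to 2900 CPM in tKO UUO, against 1051 to 1265 CPM in fl/fl UUO, and neutrophil markers to 75.6 to 89.6 CPM in tKO UUO, against 17.2 to 47.7 CPM in fl/fl UUO, and their part in the value of Hk3 was not tested. Of the 13 proximal tubule markers 7 were lower in tKO UUO, and of 7 fibroblast and myofibroblast markers 2 were higher. Leaving out single libraries left 5 to 10 members called, where 1360 to 2802 of all genes were. G6pc, Fbp1, Pcx and Pdk3 were among the called members each time.

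Whether obstruction acted differently in the genotypes was tested as an interaction, which 0 members passed with edgeR, where 0.0415% of all genes did (0.0104% above 0, 0.0312% below). At an unadjusted p of 0.05 there were 3 members, and DESeq2 called 1, Pfkfb3. The gluconeogenic genes G6pc (−0.96), Fbp1 (−1.06), Pck1 (−0.77) and Pcx (−0.75) had interaction values below 0, with adjusted p from 0.4328 to 0.6006, so these data do not show that the fall differed between genotypes.

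After UUO with LY2109761, 0 of 36 members were called by edgeR between tKO and fl/fl, where 2.98% of all genes were (0.888% higher, 2.09% lower). At an unadjusted p of 0.05 there were 5, and DESeq2 called Khk and Pck1. G6pc had 14.95, 41.4 and 24.1 CPM in tKO UUO with LY2109761, against 21.7, 9.70 and 13.2 CPM in fl/fl UUO with LY2109761, overlapping groups (log2 0.85, edgeR adjusted p = 0.3163). Fbp1 had 68.9, 81.8 and 75.9 CPM in these tKO libraries, against 86.6, 40.4 and 116 CPM in these fl/fl libraries, which also overlap (−0.10, adjusted p = 0.9126). Pdk3 had 17.6, 24.3 and 23.7 CPM in tKO, against 16.4, 13.5 and 19.2 CPM in fl/fl (0.42, adjusted p = 0.2619). Pck1 had 248, 401 and 207 CPM in tKO, against 612, 783 and 630 CPM in fl/fl, without overlap (−1.24, adjusted p = 0.0897), and 4 members in all did not overlap, where 27.2% of all genes did not.

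**Figure D4:**
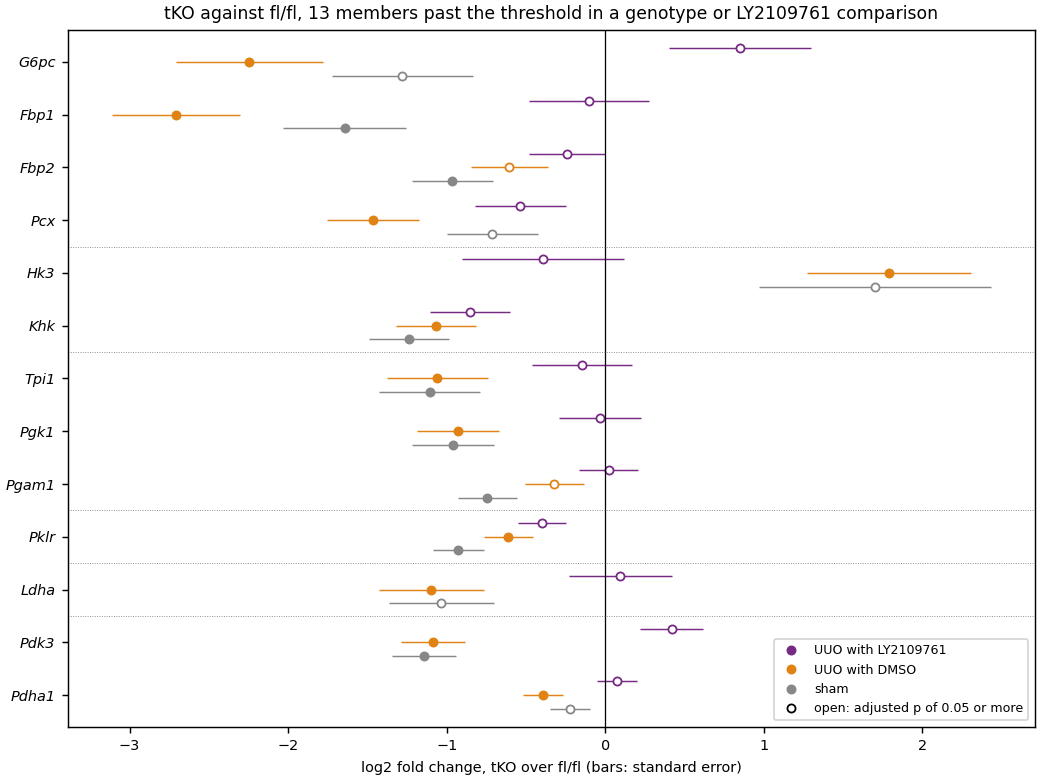
Log2 fold change (x axis, tKO over fl/fl) of the 13 members called in a comparison of genotypes or of LY2109761 (rows), each in UUO with LY2109761 (upper), UUO with DMSO (middle) and sham (lower). Bars are standard errors and open circles did not pass an adjusted p of 0.05. All values with LY2109761 are open, and that of G6pc lies at 0.85, against −2.24 with DMSO.

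Within each genotype, LY2109761 against DMSO after UUO called 1 member, G6pc in fl/fl kidneys, where 5.15% of all genes were called (2.52% higher, 2.62% lower). It had 21.7, 9.70 and 13.2 CPM with LY2109761, against 46.8, 24.4 and 72.6 CPM with DMSO (log2 −1.69, SE 0.46, edgeR adjusted p = 0.0450), and lost its call without any single library other than fl/fl UUO replicate 2. Without fl/fl UUO with LY2109761 replicate 3, only 2 of 19708 genes tested were called in fl/fl. In tKO kidneys 0 members were called by edgeR, where 0.171% of all genes were (0.0831% higher, 0.0883% lower), with 8 at an unadjusted p of 0.05 and 4 called by DESeq2 (Fbp1, G6pc, Pdk3 and Pfkfb3). There G6pc had 14.95, 41.4 and 24.1 CPM with LY2109761, against 11.4, 10.5 and 8.43 CPM with DMSO (1.41, edgeR adjusted p = 0.1416), again without overlap but in the other direction. Members without overlap were 10 in tKO and 8 in fl/fl, where 25.6% and 31.8% of all genes had none.

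The test of that difference, the effect of LY2109761 in tKO minus that in fl/fl, passed for 3 members, all above 0, where 7.05% of all genes were above 0, 6.8% below and 13.8% in either direction. They were G6pc at 3.09 (SE 0.64, edgeR adjusted p = 0.0075), Fbp1 at 2.61 (SE 0.54, adjusted p = 0.0075) and Pdk3 at 1.51 (SE 0.28, adjusted p = 0.0047). Fbp1 had 68.9, 81.8 and 75.9 CPM with LY2109761, against 37.3, 29.1 and 27.9 CPM with DMSO, in tKO, and 86.6, 40.4 and 116 CPM with LY2109761, against 217, 139 and 261 CPM with DMSO, in fl/fl. Pdk3 had 17.6, 24.3 and 23.7 CPM with LY2109761, against 14.2, 11.2 and 12.03 CPM with DMSO, in tKO, and 16.4, 13.5 and 19.2 CPM with LY2109761, against 28.7, 26.3 and 24.8 CPM with DMSO, in fl/fl. For all 3 genes LY2109761 stood above DMSO in tKO and below it in fl/fl, with no overlap in any of the 6 pairs of groups. Among the other carbohydrate genes the interaction was above 0 for 10 and below 0 for 2 of 45, with Slc37a4 at 1.69 and Slc2a5 at 2.28 called and Pdk4 at −1.96. Of the 13 proximal tubule markers 4 were called above 0 and none below, among them Cubn (1.82). Of 7 fibroblast and myofibroblast markers 4 were called below 0 and none above (median −1.20), and of 10 macrophage and monocyte markers 1 below 0. Fibroblast sums were 1105 to 1672 CPM with LY2109761, against 1673 to 3011 CPM with DMSO, in tKO, and 1322 to 1508 CPM with LY2109761, against 919 to 1055 CPM with DMSO, in fl/fl. The part of these markers in the interactions of the members was not tested.

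The tables of HK-2 cells, a line of human proximal tubule cells, and of unobstructed whole kidney list 379 and 410 genes, and 0 of the members and 0 of the other carbohydrate genes are among them.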

How the data were processed

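RNA of whole mouse kidney was sequenced as mRNA libraries from 2 ug of total RNA (per the labels' protocols), and fastp, HISAT2 and StringTie with the GRCm38/mm10 build are named in the submitters' processing notes. The authors deposited raw counts and FPKM per gene for 18 libraries; their handling of strand and of reads with several matches is not given in the sources used here. Totals of 13015669 to 19565376 counts set the precision.

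Counts were tested with edgeR 4.0.16 (TMM factors, filterByExpr with a minimum of 10 counts, quasi-likelihood test, Benjamini-Hochberg 0.05 over all 19256 genes tested) in R 4.3.3, on all 6 groups with 9 contrasts and no covariate. Standard errors are the log2 change divided by the root of F. DESeq2 1.42.0, other scalings, no filter, a replicate block, fits of the compared groups alone and leaving out each library were alternatives. The deposited FPKM were used for levels between genes and for ratios, with 0.1 added. The fit was tested on simulated data.

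Same-numbered libraries correlated at −0.134 to 0.12, so the numbers were not taken as pairs. Coordinates are GRCm38 by Ensembl ID, since the deposited loci equal that annotation for 2.69% of shared IDs and were not used. Named genes were the called members, the 4 with the smallest p where more were called, and the main isoforms by role. The members and the lists of other carbohydrate genes and cell markers were chosen with earlier results of these data known.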

Additional observations from a re-analysis of the deposited data

Results flagged for a closer look

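G6pc, Fbp1 and Pdk3 responded differently to LY2109761 in the genotypes by a test of the difference itself, the change with LY2109761 over DMSO after UUO in tKO minus that in fl/fl. The difference was 3.09 for G6pc (1.41 in tKO and −1.69 in fl/fl), 2.61 for Fbp1 (1.26 and −1.34) and 1.51 for Pdk3 (0.81 and −0.70), on the log2 scale with 3 libraries a group. These genes are 8.33% of the members, where 13.8% of all genes passed this test, 7.05% above 0, so members passed no more often than other genes. Within a genotype, only the change of G6pc in fl/fl was called by edgeR. Pcmt1 in tKO over fl/fl was at −0.29 with LY2109761 (edgeR adjusted p = 0.5354), against −0.61 with DMSO (adjusted p = 0.0818). Genotypes here are thus those of the labels. Each call held when any single library was left out, with edgeR adjusted p of 0.0047 to 0.0259 for G6pc, 0.0046 to 0.0223 for Fbp1 and 0.0035 to 0.0169 for Pdk3. With column totals G6pc kept its call (adjusted p = 0.0330), and Fbp1 (0.0648) and Pdk3 (0.1192) did not.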

How the results depend on the processing

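Scaling mattered most. With column totals the members called were 14 for UUO against sham in fl/fl (9 higher, 5 lower), 11 higher and 8 lower in tKO, 1 for tKO against fl/fl in sham, 3 in UUO, 0 for LY2109761 in fl/fl and 1 for the genotype by LY2109761 interaction. Of all 19256 genes this scaling called 9450 for UUO in fl/fl (8544 higher) and 12393 in tKO (11678 higher). It called 292 for genotype in sham, 680 in UUO, 25 for LY2109761 in fl/fl and 289 for the LY2109761 interaction. Signs then turned, among members called or described by library, in fl/fl for Pkm (0.10), Pgk1 (0.024), Gapdh (0.11), Aldoa (0.11) and Ldha (0.48), and in tKO for Pkm (0.71), Pdha1 (0.16), Hk1 (0.55), Pdk1 (0.11), Pgk1 (0.25), Gapdh (0.19), Aldoa (0.24), Gpi1 (0.13), Pdk3 (0.28) and Ldha (0.54). Other uncalled members that turned were Slc2a1 (0.20), Gpi1 (0.48), Eno1 (0.20) and Pfkfb2 (0.37) in fl/fl, and Slc2a1 (0.37), Eno1 (0.37), Pfkl (0.18), Pgam1 (0.55), Tpi1 (0.10) and Pfkfb2 (0.94) in tKO. In tKO, Hk1 turned without tKO UUO replicate 2 and ranged over single libraries left out between −1.84 and 0.073, Ldha without tKO sham replicate 1 (range −0.64 to 0.35), and Ldhb without tKO UUO replicate 1 (range −0.23 to 0.56) and with tKO sham reduced to library 1, chosen after seeing the data (−0.003). The causes were not tested. That reduction, and a fit of the compared groups alone, each left 0 members called between genotypes in sham. DESeq2 called 2, 3, 4, 1 and 6 members for genotype with LY2109761, LY2109761 in fl/fl, LY2109761 in tKO and the interactions with obstruction and LY2109761. In the same comparisons it called 1486, 2055, 945, 431 and 3517 of 33994 genes, which are all genes with any count and not the 19256 tested by edgeR. For LY2109761 in fl/fl, RLE size factors gave 2, no filter 0 and the compared groups alone 0, and the compared groups alone gave 7 for the LY2109761 interaction. With the replicate block, whose numbers do not pair the libraries, members called were 2 for LY2109761 in fl/fl and 5 for the LY2109761 interaction. Leaving out single libraries gave 20 to 22 members for UUO in fl/fl (6 to 7 higher, 14 to 16 lower), 21 to 27 in tKO (6 to 7 higher, 15 to 21 lower), 2 to 10, 5 to 10 and 0 to 0 for genotype in sham, UUO and UUO with LY2109761, 0 to 2 for LY2109761 in each genotype, and 0 to 0 and 3 to 6 for the interactions.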
